A study of Mus musculus with 12 samples.

Results

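The MYC and MAX transcription factor network and the nucleolar factors that make ribosomes were followed in cultured CT26 cells with and without Mll3. The set was given as 55 gene names: MYC family members, MAX and its partners, RNA polymerase I subunits and factors, proteins of the small nucleolar ribonucleoproteins (snoRNPs) and pre-ribosome processing factors. By symbol, 53 of the 55 have a row in the deposited table of 17718 genes, and 52 were among the 13013 genes with enough counts to test. Mycl, a MYC paralog, had 0 to 2 counts in each library and was not tested. Mycn is not analysed here, and the name Miz1 is no current mouse symbol and was not matched, since it is an older name of both Zbtb17, a zinc finger protein that binds MYC, and Pias2.

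CT26 cells come from a colon carcinoma of a BALB/c mouse. Mll3, now called Kmt2c, encodes a histone methyltransferase that acts at enhancers. Polyadenylated RNA was sequenced from 3 libraries labelled Mll3 wild-type and 3 labelled Mll3 knock-out, all untreated, all cultured in the same medium and all carrying the same batch date. The labels do not say whether the knock-out cells are 1 clone or several, nor whether the 3 libraries of a genotype are separate cultures. The p-values therefore reflect only how these libraries vary, which may be technical. Chromatin profiles and single-cell data of the same series are not analysed here.

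MYC binds DNA as a dimer with MAX and activates genes, many of which serve growth and ribosome production. MXD proteins, MXI1 and MNT also dimerise with MAX, and these dimers repress genes that carry the same DNA element, the E-box CACGTG, while MLX is a MAX-like protein that pairs with MNT, some MXD proteins and glucose-responsive factors. In the nucleolus RNA polymerase I transcribes the ribosomal RNA precursor, snoRNPs guide its chemical modification, and large assemblies fold and cut it into the RNAs of the small and large ribosomal subunits. Ribosome biogenesis genes are among the classical targets of MYC in colorectal and other tumours.

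Because CACGTG is the element that MYC-MAX and the MAX-repressor dimers share, it was searched for in RefSeq promoter windows on GRCm38.p6, 250 bases before to 50 bases after each annotated start. CACGTG reads the same on both strands, so 1 search covers both. RefSeq windows were found for 45 of the 52 tested members, and 13 of these 45 genes (28.9%) held CACGTG in at least 1 window. Among all tested genes with a window, 1107 of 9400 (11.8%) held it, and among all 32851 windows 7.15% did. These are shares of letters in a reference of another mouse strain than BALB/c, and a match is not a site of binding. The stretches printed here each run from 250 bases before a start to 10 bases after it, 5′ to 3′ on the gene's strand, with the E-box in capitals. They were chosen to show the element in the network's own genes, whose members moved in opposite directions, and in a small and a large subunit assembly gene.
Max (chr12:76962239-76962498, minus strand): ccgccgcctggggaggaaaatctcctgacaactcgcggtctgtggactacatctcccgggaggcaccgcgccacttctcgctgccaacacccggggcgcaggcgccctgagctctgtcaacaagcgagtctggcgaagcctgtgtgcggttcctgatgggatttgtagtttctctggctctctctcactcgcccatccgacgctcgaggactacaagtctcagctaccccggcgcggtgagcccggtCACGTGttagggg
Mlx (chr11:101087040-101087299, plus strand): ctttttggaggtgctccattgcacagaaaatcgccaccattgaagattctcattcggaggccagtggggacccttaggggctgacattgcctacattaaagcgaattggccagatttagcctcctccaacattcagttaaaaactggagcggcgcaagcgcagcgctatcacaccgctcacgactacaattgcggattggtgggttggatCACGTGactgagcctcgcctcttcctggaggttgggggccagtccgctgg
Mnt (chr11:74830674-74830933, plus strand): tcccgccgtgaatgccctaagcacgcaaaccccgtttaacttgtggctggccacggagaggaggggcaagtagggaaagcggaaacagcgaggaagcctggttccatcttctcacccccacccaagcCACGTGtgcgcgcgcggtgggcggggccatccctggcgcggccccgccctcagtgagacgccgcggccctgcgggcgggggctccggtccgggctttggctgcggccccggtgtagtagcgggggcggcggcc
Mxd4 (chr5:34187701-34187960, minus strand): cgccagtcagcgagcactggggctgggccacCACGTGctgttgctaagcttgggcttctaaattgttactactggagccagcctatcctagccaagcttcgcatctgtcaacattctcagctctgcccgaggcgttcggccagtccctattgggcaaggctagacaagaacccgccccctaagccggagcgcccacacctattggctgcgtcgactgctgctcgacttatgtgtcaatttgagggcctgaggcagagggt
Imp4 (chr1:34439579-34439838, plus strand): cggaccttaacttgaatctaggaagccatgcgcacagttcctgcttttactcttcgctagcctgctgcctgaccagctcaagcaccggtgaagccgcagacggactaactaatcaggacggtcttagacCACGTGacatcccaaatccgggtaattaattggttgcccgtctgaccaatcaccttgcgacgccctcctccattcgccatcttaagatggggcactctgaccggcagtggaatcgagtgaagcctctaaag
Nop2 (chr6:125131633-125131892, plus strand): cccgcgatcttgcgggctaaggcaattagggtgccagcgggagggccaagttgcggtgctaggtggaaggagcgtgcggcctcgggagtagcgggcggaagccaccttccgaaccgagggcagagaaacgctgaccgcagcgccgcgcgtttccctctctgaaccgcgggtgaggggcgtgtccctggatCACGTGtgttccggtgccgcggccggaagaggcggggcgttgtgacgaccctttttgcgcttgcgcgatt
Max and Mlx fell in the knock-out, and Mnt and Mxd4 rose, although all 4 windows hold the element. Counted from the start of the window used, the first base of CACGTG lies 3 bases before it in Max and 40 in Mlx. It lies 123 bases before that start in Mnt and 219 in Mxd4. In Imp4 the distance is 121 bases and in Nop2 it is 60. For Max, Mlx and Mnt the start used lies inside the gene span printed below. The distances therefore depend on the start chosen, and no contrast between genes that fell and rose is drawn from them. The other members with CACGTG were Utp4, Wdr43, Ltv1, Tsr1, Rrn3, Pes1 and Utp20, and Rrn3 held it at 2 places. By direction of change, CACGTG was found in 10 of 28 members that fell, in 2 of 11 that rose and in 1 of 6 that did not pass the test. By role, 4 of 7 network members and 9 of 38 other members held CACGTG. The variant CACGCG was searched for on both strands. It was found in 6 of 28 members that fell (21.43%), 5 of 11 that rose (45.45%) and 1 of 6 that did not pass. Of all tested genes with a window, 20.05% held CACGCG. A gene was counted if any of its windows held the element. The 28 members that fell had 30 windows and the 11 that rose had 19, so the latter had more windows per gene. A link of either element to direction was not tested. Both Nop56 and Nop58, which fell most steeply among snoRNP genes, held no CACGTG in their windows. No window was matched for Myc, Npm1, Fbl, Nop53, Bop1, Rrp12 and Rrs1.

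In the knock-out most members were lower. Of 52 tested, 33 fell, 11 rose and 8 did not pass an adjusted p of 0.05 in edgeR's quasi-likelihood test with Benjamini-Hochberg adjustment over all 13013 genes. The contrast was broad across the transcriptome, and this sets the scale for that count: 66.2% of all tested genes passed, 33.2% lower and 33.1% higher. Against those shares, 63.5% of the members fell and 21.2% rose. The median log2 fold change, knock-out over wild-type, was -0.32 for the members and 0.02 for all tested genes. Below 0 lay 39 of the 52 members and 6385 of all 13013 tested genes. For 46 members the 3 knock-out libraries did not overlap the 3 wild-type libraries, a state reached by 68.7% of all tested genes. By size, 17 members fell by at least 1.5-fold, as did 14.4% of all tested genes, and 3 members rose by at least 1.5-fold, as did 18.7% of all. Only Nop58 fell by at least 2-fold, a size reached by 4.99% of all.

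**Figure D1:**
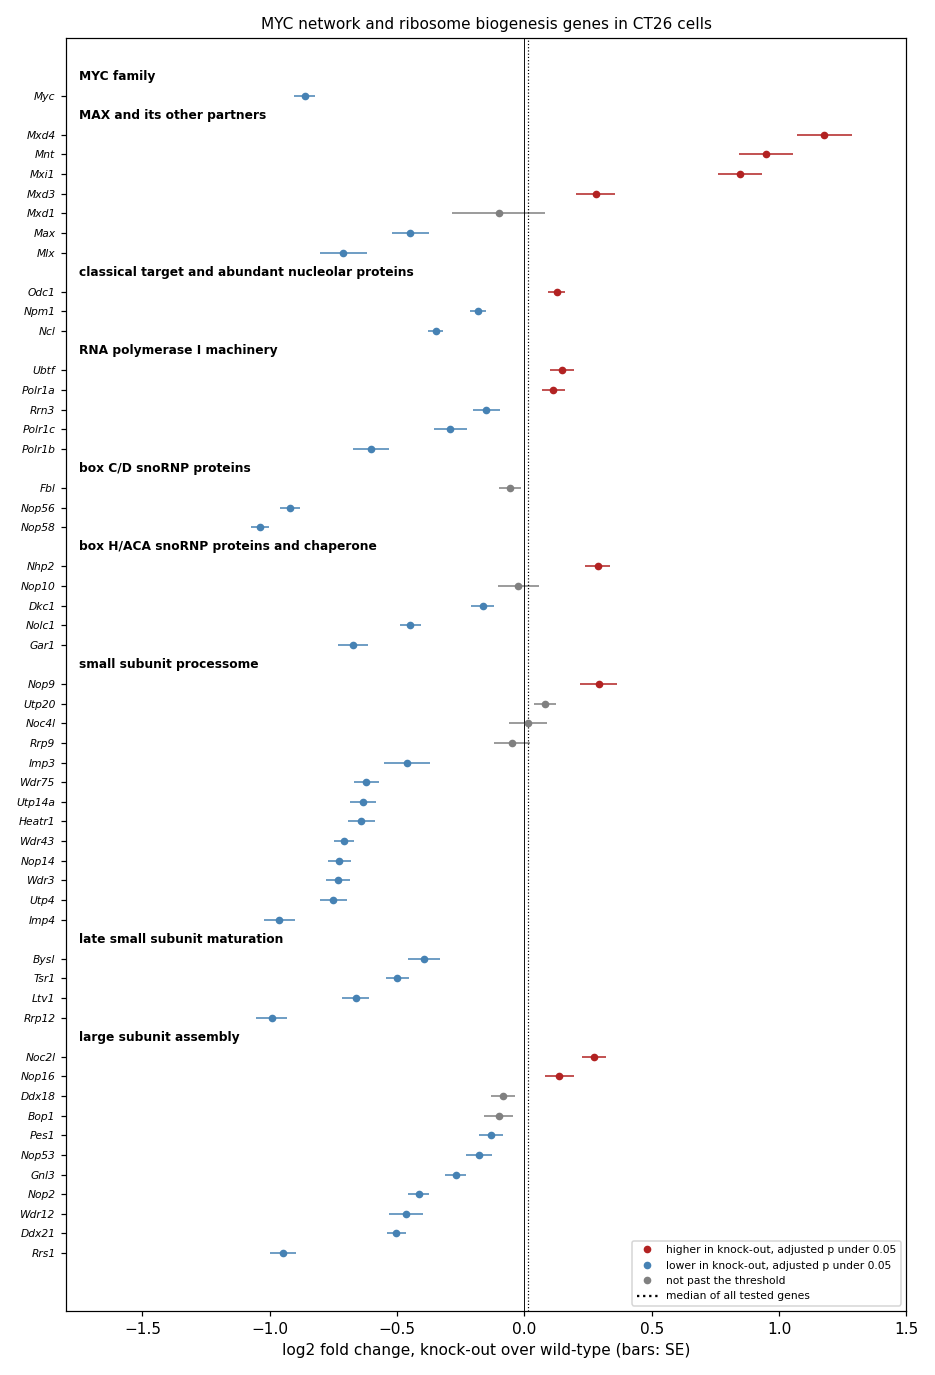
Log2 fold change (knock-out over wild-type, x axis, bars are standard errors) of the 52 tested members, grouped by role. Mxd4, Mnt and Mxi1 stand far to the right among MAX partners, while Nop58, Rrp12 and Imp4 lie farthest to the left; the dotted line is the median of all tested genes, 0.02.

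Counts per library ran from 9559658 to 13406013, so that 1 count equals 0.0746 to 0.105 CPM, counts scaled to library size. Kmt2c itself had 24.9, 26.2 and 25.0 CPM in wild-type and 16.0, 11.2 and 14.8 CPM in knock-out libraries, a log2 fold change of -0.87 (SE 0.129, edgeR adjusted p = 4.33e-08), although a whole-gene count does not show an edit. The defining epithelial markers Epcam, Cdh1, Krt19 and Cdx2 have no row in the table, and the 4 others of that list (Krt18, Krt20, Krt8 and Vil1) summed to 50.6 to 52.7 CPM in wild-type and 167 to 181 CPM in knock-out. The difference was mostly of Krt18 (516, 371 and 354 counts against 1074, 1351 and 1153) and Krt20 (183, 147 and 144 against 557, 619 and 492). Krt8 had 1, 1 and 2 counts against 16, 37 and 25. Vil1 did not rise, with 6, 1 and 3 counts against 3, 3 and 1. Of 10 immune markers 5 have a row, summing to 4.70 to 6.62 CPM in wild-type and 14.2 to 16.9 CPM in knock-out, a difference mostly of Lyz2 (8, 8 and 2 counts against 96, 100 and 87), while Cd68 had 54, 56 and 39 against 52, 56 and 50 counts and the pan-leukocyte gene Ptprc had 1 to 4 counts in each library. Their part in the results on members was not tested. In bulk RNA, fewer cells of a type and less RNA per cell cannot be told apart.

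Myc (ENSMUSG00000022346, chr15:61985341-61990361), the transcription factor at the head of the network, had 302, 301 and 313 CPM with Mll3 intact and 166, 170 and 167 CPM without it. All 3 knock-out values lie far below all 3 wild-type values, and each group is tight. The means were 305 ± 6.70 and 168 ± 2.26 CPM (SD, n = 3 each), a 1.82-fold fall (log2 fold change -0.86, SE 0.0423, edgeR adjusted p = 1.54e-25). The 30 tested genes within 5 Mb on each side of Myc had a median of 0.00. That median does not speak for each flank. For Ndrg1, on the same chromosome (chr15:66929318-66969641), the 11 tested genes within 5 Mb had a median of -0.43. A regional part in the fall of Myc was not tested. Across the leave-one-out fits its log2 fold change ranged from -0.89 to -0.86.

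MAX, the obligate partner of MYC (chr12:76937269-76962323), stood at 70.4, 83.5 and 69.5 CPM in wild-type and at 52.1, 56.8 and 54.5 CPM in knock-out libraries. The groups did not overlap, and Max fell by 0.45 on the log2 scale (SE 0.0725, edgeR adjusted p = 2.89e-07). Mlx, the MAX-like partner (chr11:101086707-101092207), had 51.5, 53.0 and 41.5 CPM in wild-type and 29.6, 32.1 and 27.7 CPM in knock-out libraries. Mlx thereby fell 1.64-fold, and the lowest wild-type library, at 41.5 CPM, still lies above the highest knock-out library (-0.71, SE 0.0926, edgeR adjusted p = 1.47e-09).

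Of the 5 tested MAX-binding repressors among the members, 4 rose and Mxd1 did not pass the test. Mxd4 (chr5:34176580-34187710) had 15.4, 17.3 and 17.4 CPM in wild-type and 34.9, 36.1 and 41.9 CPM in knock-out libraries. Its levels rose 2.26-fold, from 16.7 ± 1.12 to 37.7 ± 3.71 CPM (SD, n = 3 each), the largest rise among the members (log2 fold change 1.18, SE 0.109, edgeR adjusted p = 2.87e-14). Mnt (chr11:74830806-74845725), a repressor present in dividing as well as resting cells, had 17.4, 18.9 and 18.9 CPM against 35.9, 35.5 and 34.8 CPM. The 3 knock-out libraries of Mnt lie close together, 1.93-fold above wild-type on average (0.95, SE 0.105, edgeR adjusted p = 1.26e-11). Mxi1 (chr19:53310128-53373293) had 29.47, 29.37 and 26.96 CPM against 52.86, 50.42 and 51.51 CPM, a 1.80-fold rise (0.85, SE 0.0863, edgeR adjusted p = 8.4e-13). Mxd3, a family member linked to S phase, rose less, from 45.0, 48.6 and 44.5 CPM to 58.0, 55.4 and 54.3 CPM (0.28, edgeR adjusted p = 0.00119). Mxd1, which is known for its induction during differentiation, had 9.11, 7.75 and 14.7 CPM against 9.10, 9.86 and 10.2 CPM. Its groups overlapped and it did not pass the test (-0.10, edgeR adjusted p = 0.644).

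Set against Myc within each library, the shift is visible without any scaling between libraries. Each ratio includes the 1.82-fold fall of Myc itself, so a gene without change would also show a higher ratio. The ratios are therefore not separate evidence of the rises. For every 100 Myc counts there were 5.75, 6.27 and 6.03 Mnt counts in wild-type and 21.7, 20.8 and 20.8 in knock-out libraries, 3.51-fold more. The Mxd4 ratio went from 5.10, 5.76 and 5.55 to 21.1, 21.2 and 25.0, 4.11-fold more, and the Mxi1 ratio from 9.75, 9.77 and 8.61 to 31.9, 29.6 and 30.8, 3.28-fold more. For Max the ratio moved from 23.3, 27.8 and 22.2 to 31.4, 33.4 and 32.5, 1.33-fold more, since Max fell less than Myc. These ratios are not corrected for transcript length, so the change between genotypes can be read from them but not which RNA is the more abundant. They are RNA ratios and say nothing of the proteins or dimers.

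**Figure D2:**
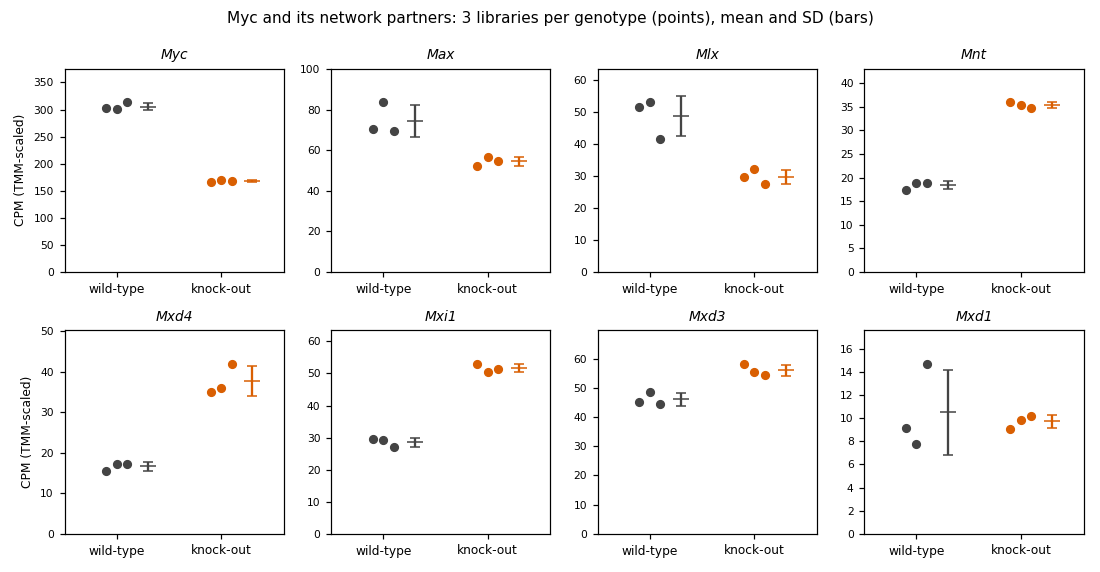
TMM-scaled CPM (y axis, from 0, a scale per gene) of Myc and 7 network partners in 3 wild-type and 3 knock-out libraries, with mean and SD beside the points. Myc, Max and Mlx sit lower in the knock-out and Mnt, Mxd4, Mxi1 and Mxd3 higher, without overlap; the Mxd1 groups overlap.

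Other genes of the MYC circuit were taken from lists of partners and regulators. Of 14 tested, 10 fell and 1 rose, with a median of -0.34, while 33.2% of all tested genes fell and 33.1% rose. Under upper-quartile scaling 7 of the 14 fell, 2 rose and the median was -0.18. Kat5, the acetyltransferase that MYC recruits, fell from 78.6 ± 5.81 to 40.8 ± 1.16 CPM (SD, n = 3 each; -0.95, edgeR adjusted p = 4.88e-17). Mga, a further MAX-binding repressor, fell by 0.54, Mycbp2, a ubiquitin ligase named for binding MYC, fell by 0.55, and Usp28, a deubiquitinase that stabilises MYC, fell by 0.66. Mga therefore moved opposite to Mnt, Mxd4 and Mxi1. Zbtb17 fell by 0.53 (edgeR adjusted p = 0.000712).

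Among 20 further genes known to be activated by MYC the direction was mixed, with 8 higher, 8 lower and a median of -0.10 that became 0.055 under upper-quartile scaling. Slc7a5, an amino acid transporter, fell from 767 ± 28.3 to 308 ± 5.21 CPM (-1.32), and Eif4e, the cap-binding initiation factor, fell by 0.68. Apex1, a DNA repair endonuclease, rose by 1.30 and Tfrc, the transferrin receptor, rose by 1.03. Medians of genes within 5 Mb were -0.22 for Slc7a5, -0.37 for Eif4e, 0.36 for Apex1 and -0.02 for Tfrc. Of 8 genes known to be repressed by MYC, 4 were tested. Gadd45a, a stress-response gene, fell by 2.66, whereas Cdkn1a, the cell cycle inhibitor p21, rose by 0.35. Ndrg1, a differentiation- and hypoxia-responsive gene, fell by 1.14 in a stretch whose median was -0.43. Cdkn1b had -0.17 (edgeR adjusted p = 0.0915).

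The abundant nucleolar proteins changed little in size. Ncl, nucleolin, had 2946, 2886 and 2768 CPM in wild-type and 2220, 2276 and 2261 CPM in knock-out libraries, a fall of 0.35 on the log2 scale (SE 0.0299, edgeR adjusted p = 2.17e-15). Genes within 5 Mb of Ncl had a median of -0.30, close to its own value. Npm1, nucleophosmin, had 3101, 3074 and 2884 CPM against 2691, 2651 and 2642 CPM, and fell by 0.18 (SE 0.0301, edgeR adjusted p = 4.57e-07), a call lost under upper-quartile scaling (-0.02). Odc1, the polyamine synthesis enzyme and a textbook MYC target, rose by 0.13 (SE 0.0319, edgeR adjusted p = 0.000474), opposite to Myc itself.

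Of 5 RNA polymerase I members 3 fell and 2 rose. Polr1b, the second largest subunit, had 81.1, 82.7 and 75.5 CPM in wild-type and 49.7, 51.7 and 56.3 CPM in knock-out libraries, without overlap, and fell 1.52-fold (-0.60, SE 0.0694, edgeR adjusted p = 4.41e-11). Polr1c, a subunit shared with RNA polymerase III, had 91.3, 84.9 and 82.8 CPM against 75.3, 65.4 and 71.7 CPM and fell by 0.29 (SE 0.0648, edgeR adjusted p = 8.88e-05). The largest subunit gene Polr1a rose by 0.11 (edgeR adjusted p = 0.0237) and Ubtf, which organises active ribosomal DNA, rose by 0.15 (edgeR adjusted p = 0.00479). Rrn3, the initiation factor TIF-IA, fell by 0.15 (edgeR adjusted p = 0.0111). Upper-quartile scaling turned Rrn3 to 0.0084 and left Polr1c at -0.13 (edgeR adjusted p = 0.0608). Polr1a no longer passed without wild-type library 2 (0.10), knock-out library sg1 (0.08) or sg2 (0.10), and Ubtf without wild-type library 2 (0.11) or knock-out library sg3 (0.12). With chromosome medians removed, Polr1a (0.097), Ubtf (0.090) and Rrn3 (-0.11) did not pass, and the neighbours of Polr1a had a median of 0.14, above its own value. In the rest of the polymerase and its promoter factor SL1, 3 of 12 tested genes rose and 5 fell, with a median of -0.18. Under upper-quartile scaling 5 rose, 4 fell and the median was -0.019. Taf1a and Taf1d, SL1 subunits, fell by 1.15 and 0.64. Among the subunits that RNA polymerases share, Polr2h fell by 0.61 and Polr2e rose by 0.94, the latter in a stretch whose median was 0.59.

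The box C/D snoRNPs carry out 2′-O-methylation of ribosomal RNA, and 2 of their 3 members fell. Nop58 (chr1:59684961-59711510), a scaffold protein, had 800, 807 and 780 CPM in wild-type and 396, 376 and 392 CPM in knock-out libraries. Both groups were tight and far apart, at 796 ± 14.0 and 388 ± 10.5 CPM (SD, n = 3 each), a 2.05-fold fall (-1.04, SE 0.0356, edgeR adjusted p = 9.2e-33). Genes within 5 Mb of Nop58 had a median of -0.21, and the difference of Nop58 from it was -0.83. Nop56 (chr2:130274367-130279313), the companion scaffold, had 692, 698 and 623 CPM against 336, 370 and 357 CPM, 1.89-fold lower (-0.92, SE 0.0403, edgeR adjusted p = 6.53e-26). Fbl, the methyltransferase fibrillarin of the same particle, had 256, 250 and 235 CPM against 229, 244 and 239 CPM. The Fbl groups overlapped and it did not pass the test (-0.06, edgeR adjusted p = 0.238). Its direction was not stable: it was lower without wild-type library 3 (-0.10, edgeR adjusted p = 0.0203) and with chromosome medians removed (-0.14, edgeR adjusted p = 0.00353), and higher under upper-quartile scaling (0.10, edgeR adjusted p = 0.0266). Snu13, the other core protein gene of the particle, from the wider snoRNP list, had -0.02 and did not pass either (edgeR adjusted p = 0.733). RefSeq places 4 snoRNA genes within Nop58 and 5 within Nop56, and reads of those RNAs cannot be told apart from the host in a whole-gene count.

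The box H/ACA snoRNPs convert uridine to pseudouridine, and of the 5 members that encode their proteins or the chaperone Nolc1, 3 fell and 1 rose. Gar1 had 126, 121 and 124 CPM in wild-type and 76.8, 73.0 and 83.0 CPM in knock-out libraries and fell 1.59-fold (-0.67, SE 0.0578, edgeR adjusted p = 2.05e-15). Genes within 5 Mb of Gar1 had a median of -0.32. Nolc1, a nucleolar chaperone of both snoRNP classes, had 325, 319 and 347 CPM against 236, 245 and 245 CPM and fell by 0.45 (SE 0.0412, edgeR adjusted p = 2.56e-14). The pseudouridine synthase gene Dkc1 fell by 0.16, a call lost under upper-quartile scaling (-0.0071), Nhp2 rose by 0.29 and Nop10 had -0.02 without passing the test. In the wider snoRNP list 4 of 10 tested genes rose and 3 fell, with a median near 0 (-0.005, and 0.15 under upper-quartile scaling): the assembly factor genes Znhit6 and Naf1 fell by 0.87 and 0.59, and Rpap3 and Pih1d1, of the R2TP chaperone complex, rose by 0.65 and 0.66.

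The small subunit processome, the assembly that folds and cuts the early precursor of the small subunit, had 9 of 13 members lower and 1 higher, with a median of -0.63. Wdr43 had 572, 567 and 524 CPM in wild-type and 336, 340 and 343 CPM in knock-out libraries, 1.63-fold lower (-0.71, SE 0.038, edgeR adjusted p = 9.25e-24). Nop14 had 324, 338 and 304 CPM against 181, 202 and 201 CPM, 1.66-fold lower (-0.73, SE 0.0448, edgeR adjusted p = 3.49e-21). Neither gene's groups came near each other. Imp4, which pairs the U3 snoRNA with the precursor, fell most in this group (-0.96), and its partner Imp3 fell by 0.46. Genes within 5 Mb of Imp4 had a median of -0.27, and those of Imp3 0.02. The genes Wdr3, Utp4, Wdr75, Heatr1 and Utp14a all fell, with log2 fold changes of -0.73, -0.75, -0.62, -0.64 and -0.63. In the same order, genes within 5 Mb of them had medians of -0.37, -0.32, -0.14, -0.30 and -0.11. Utp20 (0.08), Noc4l (0.01) and Rrp9 (-0.05) did not pass the test, and Nop9 rose by 0.29 within a stretch whose median was 0.38. Among 38 further tested genes of the processome and small subunit, 26 fell and 3 rose, with a median of -0.31. Under upper-quartile scaling 21 fell, 6 rose and the median was -0.16. Esf1 fell from 414 ± 18.2 to 169 ± 12.0 CPM (-1.29). Riok1 and Nob1, which act at the last steps of the small subunit, fell by 1.10 and 0.91. Krr1 rose by 0.55 within a stretch whose median was 0.46. Stretch medians were -0.035 for Esf1, -0.08 for Riok1 and -0.30 for Nob1.

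Late small subunit maturation had all 4 of its members lower. Rrp12, an export and processing factor, had 121, 125 and 127 CPM in wild-type and 59.6, 62.1 and 65.6 CPM in knock-out libraries, 1.99-fold lower (-0.99, SE 0.0593, edgeR adjusted p = 9.26e-22). Ltv1, an assembly factor that leaves the particle late, had 149, 149 and 134 CPM against 93.7, 91.2 and 88.1 CPM, 1.58-fold lower (-0.66, SE 0.0545, edgeR adjusted p = 4.03e-16), while genes within 5 Mb of it had a median of 0.34. Tsr1 fell by 0.50 and Bysl by 0.39.

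Of 11 large subunit assembly members 7 fell and 2 rose, with a median of -0.18 (5 lower, 2 higher and -0.020 under upper-quartile scaling). Rrs1, which brings the 5S particle into the precursor, had 180, 183 and 186 CPM in wild-type and 91.2, 92.0 and 101 CPM in knock-out libraries, 1.93-fold lower (-0.95, SE 0.0514, edgeR adjusted p = 1.35e-23). Genes within 5 Mb of Rrs1 had a median of -0.26. Ddx21, an RNA helicase, had 612, 601 and 547 CPM against 412, 413 and 417 CPM, 1.42-fold lower (-0.50, SE 0.038, edgeR adjusted p = 1.52e-17), in a stretch whose median was 0.30. The PeBoW complex of Pes1, Bop1 and Wdr12 was uneven: Wdr12 fell by 0.47, Pes1 fell by 0.13 (0.027 under upper-quartile scaling) and Bop1 had -0.10 without passing the test (edgeR adjusted p = 0.119). Pes1 no longer passed without wild-type library 1 (-0.10) or 2 (-0.11), and Bop1 passed without wild-type library 2 (-0.16). The RNA methyltransferase gene Nop2 fell by 0.42, Gnl3, nucleostemin, fell by 0.27 and Nop53 fell by 0.18, a call lost under upper-quartile scaling (-0.020). Noc2l rose by 0.27. Nop16 rose by 0.14, and lost its call when any library but wild-type library 1 was left out (0.09 to 0.14). Ddx18, a helicase, had -0.08 and did not pass, but passed as lower without wild-type library 3 (-0.11) and as higher with chromosome medians removed (0.11, edgeR adjusted p = 0.0375), where its neighbours had a median of -0.43. Of 46 further large subunit genes 35 fell and 3 rose, with a median of -0.41 (26 lower, 7 higher and -0.25 under upper-quartile scaling). Among these genes Rpf1 fell by 1.38, Nip7 by 0.95, Mak16 by 0.94 and Gtpbp4 by 0.86. In the same order, genes within 5 Mb of them had medians of -0.34, -0.30, -0.57 and -0.30. The exosome and other trimming nucleases had 7 of 14 lower and 2 higher, with a median of -0.19 (7 lower, 4 higher and -0.035 under upper-quartile scaling). In that list Mphosph6, an exosome cofactor, fell by 1.32, Xrn2 and Dis3, both nucleases, fell by 0.51, and Exosc9, an exosome core subunit, rose by 0.34.

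**Figure D3:**
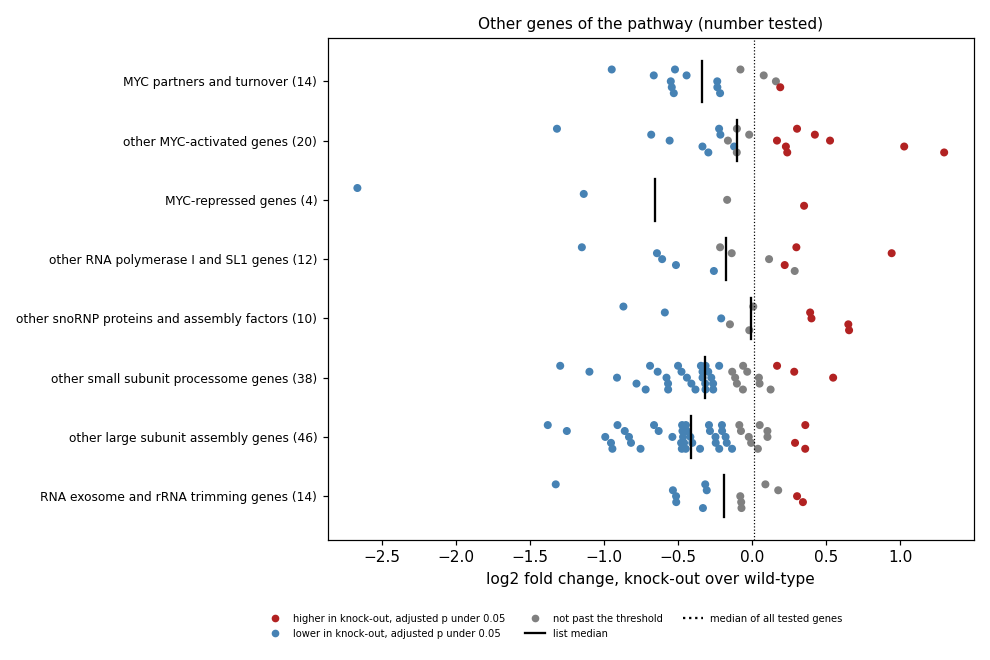
Log2 fold change (knock-out over wild-type, x axis) of each tested gene in 8 lists of other MYC pathway and ribosome assembly genes (rows, with the number tested). The small and large subunit assembly lists lie mostly left of 0, with medians of -0.31 and -0.41 (-0.16 and -0.25 under upper-quartile scaling). The snoRNP list (-0.005) and the MYC-activated list (-0.10) spread to both sides, with medians of 0.15 and 0.055 under upper-quartile scaling.

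Adding these 5 ribosome biogenesis lists together, 76 of 120 tested genes fell, 15 rose and the median was -0.29. Those totals hold for the main scaling. Under upper-quartile scaling fewer genes fell in the small (21 of 38) and large (26 of 46) subunit lists. The 44 members outside the MYC and MAX network had 30 lower, 7 higher and a median of -0.37. As a share of all counts in a library, the 53 members took 1.55%, 1.53% and 1.50% in wild-type and 1.32%, 1.32% and 1.33% in knock-out libraries. The 41 ribosome biogenesis members without Ncl, Npm1 and Odc1 took 0.816%, 0.810% and 0.793% against 0.640%, 0.642% and 0.650%. These shares do not overlap between genotypes, as was the case for 68.7% of single tested genes. They use no TMM factor but divide by the total count, which is scaling by library size. With that scaling the median of all tested genes was 0.14.

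**Figure D4:**
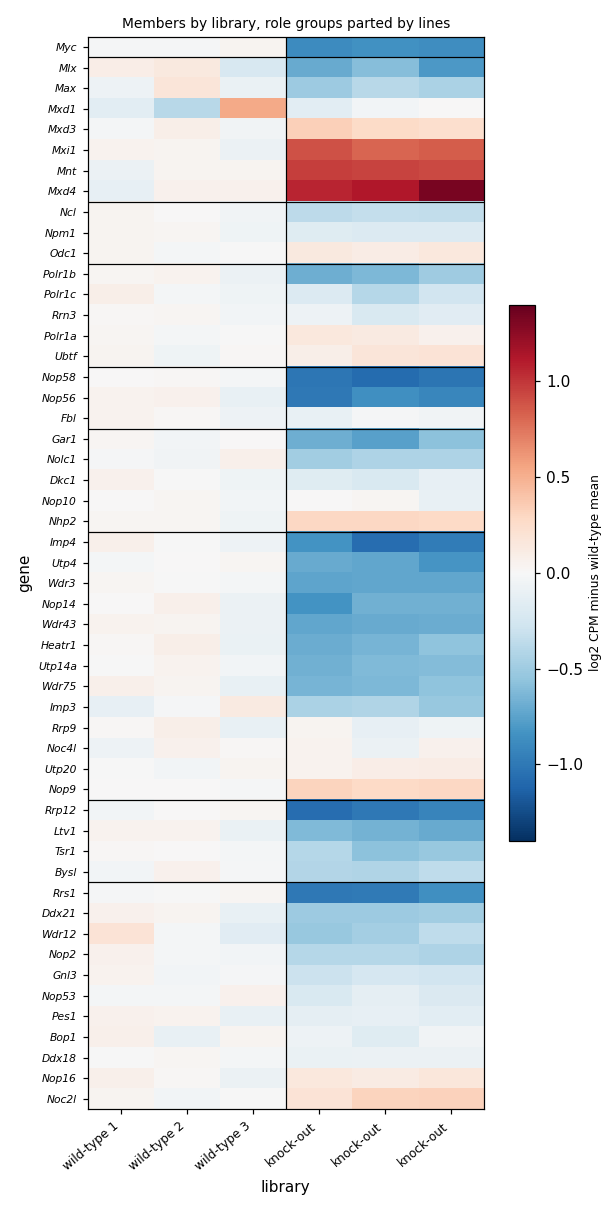
Log2 CPM of each tested member minus its wild-type mean (colour, from blue below to red above) in the 3 wild-type and 3 knock-out libraries (columns), with lines between role groups. The 3 knock-out libraries carry the same pattern, red for Mxi1, Mnt and Mxd4 and blue for Myc, Nop58, Nop56, Rrp12 and Rrs1; Mxd1 varies most among wild-type libraries.

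Whole stretches of chromosomes differed between the genotypes, with chromosome medians of -0.36 on chromosome 8 and 0.36 on chromosome 10, so each member was also set beside its neighbours. Of 52 members 41 lay below the median of tested genes within 5 Mb on each side, and the median difference from neighbours was -0.32. Among all tested genes with enough neighbours, 5975 of 11902 lay below theirs, with a median difference of -0.003. The closest members did not always move together. Mnt and Tsr1 lie 52.4 kb apart on chromosome 11, and Mnt rose by 0.95 while Tsr1 fell by 0.50. Mxd4 and Nop14 lie 451 kb apart on chromosome 5, and Mxd4 rose by 1.18 while Nop14 fell by 0.73. Nop58 and Wdr12, 360 kb apart on chromosome 1, both fell. Chromosome 1, whose median was -0.19, holds 7 members, of which 6 fell. With chromosome medians removed and the test run again, 35 members fell and 9 rose; Nop9 turned to -0.06 and no longer passed, and Utp20 turned to -0.28 and passed (edgeR adjusted p = 1.12e-07).

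**Figure D5:**
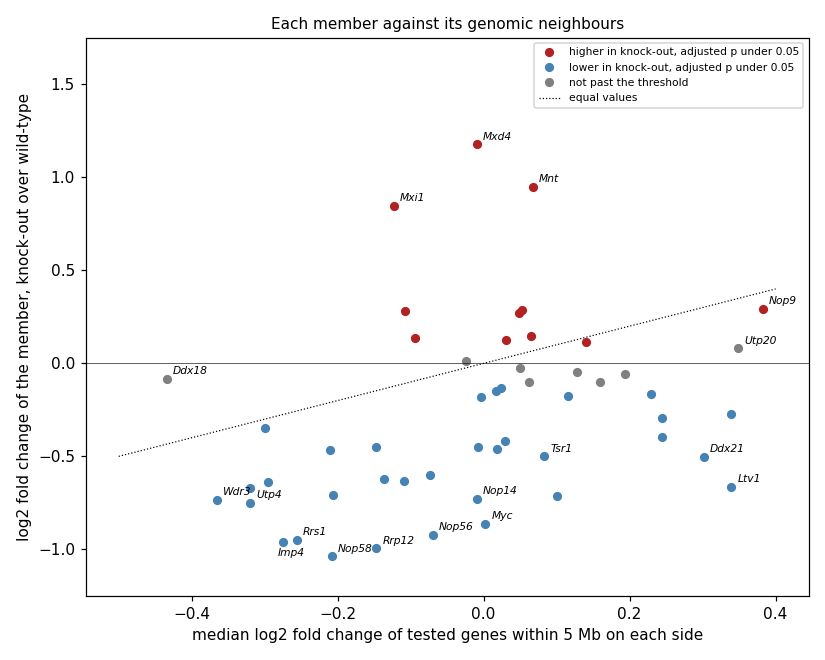
Log2 fold change of each member (y axis, knock-out over wild-type) against the median of tested genes within 5 Mb on each side (x axis); the dotted line marks equal values. Most members lie below the line, Ltv1 and Ddx21 fell in stretches with medians of 0.34 and 0.30, and Nop9 (0.29) sits near its neighbours' median of 0.38.

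The libraries were made with a directional kit, but whether the counting used strand is not given in the sources used here, so members that overlap another counted gene are uncertain. RefSeq spans of 16 of the 52 tested members overlap such a gene, among them Mlx, Nop56, Nop14, Nop9, Tsr1, Mxd3 and Wdr12. Npm1, Ncl and Fbl have processed copies elsewhere in the genome, and reads may be split between copies. The direction of Myc, Max, Mlx, Mnt, Mxd4, Mxi1, Nop58 and Nop56 and their calls held under each of 15 tested alternatives. Not counted among the 15 are the test against a 1.5-fold change and the removal of neighbour medians, which gives no call. Across all members 27 of the 33 falls and 7 of the 11 rises held under all 15.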

How the data were processed

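RNA-seq of 3 wild-type and 3 knock-out CT26 libraries was used. The values are whole-number counts per gene as deposited by the authors. The submitters' processing notes name the build mm10 and, without roles or versions, the tools STAR, HTSeq, fastp, SEACR, Bowtie2 and deepTools. How HTSeq handled strand is not given in the sources used here. No gene of the table has counts in fewer than 3 libraries, so rarer genes had been removed beforehand.

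Wild-type columns were matched by name and number. Knock-out columns carry "sg" and a number that the labels do not explain, and were assigned to the group only. Symbols were matched for 17650 of 17718 identifiers. Genes passing filterByExpr (minimum count 10, minimum total 15) were scaled by TMM (factors 0.950 to 1.05) and tested with edgeR 4.0.16 (glmQLFit, robust, glmQLFTest; limma 3.58.1, R 4.3.3), with Benjamini-Hochberg adjustment over 13013 genes at 0.05. The SE was derived from the F statistic, and CPM are TMM-scaled. The biological coefficient of variation was 5.03%. The script was tested on simulated data. Positions, neighbours and promoter windows were matched by symbol to RefSeq (GRCm38.p6, which is mm10).

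Members and lists were chosen with earlier results of these data known. Values per library are given for the MYC and MAX network, in each role group the 2 members of smallest p, and the 2 largest rises; each further list names up to 4 of its called genes with the smallest p, and Zbtb17, Cdkn1b and Snu13 were named after their values were seen. Alternatives were other scalings, filters and tools, DESeq2 1.42.0 among them, stricter thresholds, removal of chromosome or neighbour medians, and leaving out each library.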

Additional observations from a re-analysis of the deposited data

How the results depend on the processing

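The falls of Myc, Max, Mlx, Nop56 and Nop58 and the rises of Mnt, Mxd4 and Mxi1 kept direction and call in all tested alternatives outside the 1.5-fold test. Against a 1.5-fold change, 3 members were higher and 10 lower, and of all 13013 genes 1448 were higher and 1154 lower. The members' median (-0.32) became -0.16 under upper-quartile scaling, -0.20 with library size alone and -0.28 with chromosome medians removed, and ran from -0.36 to -0.29 when each library was left out (without wild-type library 1 or 3 at the ends). Those 2 scalings moved the median of all genes from 0.02 to 0.17 and 0.14. The members' median minus that of all genes was -0.33 under each. A change of scaling shifts every gene by nearly the same amount, so this difference could hardly move and is no check on the scaling. The 4301 higher and 4320 lower genes became 5587 and 3183 under upper-quartile scaling and 5266 and 3440 with library size alone; members became 14 higher and 27 lower, and 12 and 29. Groups with small medians followed: RNA polymerase I went from -0.15 to 0.0084 under upper-quartile scaling, other snoRNP genes from -0.005 to 0.15 and 0.12 with library size alone, and MYC-activated genes from -0.10 to 0.055 and 0.019. Without a change of sign, large subunit assembly went to -0.020 and -0.056, other RNA polymerase I genes to -0.019 and -0.055, exosome genes to -0.035 and -0.071, and the box H/ACA group from -0.16 to -0.0071 and -0.043.

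Members with small changes turned sign. Under upper-quartile scaling Mxd1 was 0.055, Rrn3 0.0084, Fbl 0.10 (edgeR adjusted p = 0.0266), Nop10 0.13, Rrp9 0.11, Bop1 0.056, Pes1 0.027 and Ddx18 0.074. With library size alone Mxd1 was 0.019, Fbl 0.064, Nop10 0.098, Rrp9 0.073, Bop1 0.020 and Ddx18 0.038. With chromosome medians removed Utp20 was -0.28, Nop9 -0.056 and Ddx18 0.11 (edgeR adjusted p = 0.0375); with neighbour medians removed Nop9 was -0.091 and Polr1a -0.026. Without the filter Noc4l was -0.0018. Leaving out 1 library gave Mxd1 -0.27 to 0.19, Nop10 -0.061 to 0.0034 and Noc4l -0.025 to 0.048. The cause was not tested. Calls lost under both of these scalings included those of Rrn3, Dkc1, Nop53 and Pes1, and Nop16, Polr1a and Ubtf lost theirs in other alternatives, leaving out single libraries among them. No paired analysis was possible because the knock-out columns carry no replicate number that the labels explain. Mycl was under the filter, and Mxd1, near 10 CPM, had the largest SE of the tested members (0.183). Its SD was 3.66 CPM in wild-type and 0.555 CPM in knock-out libraries. How far depth sets that SE was not tested.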
